A study of Mus musculus with 51 samples.

Results

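The genes described here encode 10 surface proteins that flow cytometry uses to sort blood stem cells and their early progeny: Slamf1 (CD150), Cd48, Cd34, Ly6a (Sca-1), Procr (EPCR), Thy1 (CD90), Fcgr3 (a Fc gamma receptor), Tek (Tie2), Esam and Cd27. They were chosen by name, and every probe set that the array's platform annotation gives to 1 of them alone was taken. That gave 11 of 45037 probe sets, for 9 of the 10 genes. Slamf1 had 3 probe sets and the other 8 genes had 1 each. The annotation used here names no probe set for Ly6a, so Ly6a has no value below.

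The samples were sorted from the marrow of wild type animals and of animals with an Mll-AF9 knock-in allele. They held haematopoietic stem cells (HSC) and the progenitors of lymphocytes (common lymphoid progenitors, CLP), of myeloid and erythroid cells (common myeloid progenitors, CMP) and of granulocytes and macrophages (GMP). The knock-in joins the histone methyltransferase gene Mll (Kmt2a) to Af9 (Mllt3), a fusion found in acute leukaemia. The study asked which genes differ between Mll-AF9 cells and wild type cells of the same population. Wild type GMP, CMP and HSC had 5 replicates each and wild type CLP had 8. Mll-AF9 GMP and CMP had 4 each, Mll-AF9 HSC had 5 and Mll-AF9 CLP had 7. The sources used here do not give the age, sex, zygosity or strain of the mice, nor the antibodies and gates of the sorts.

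No single surface protein marks a blood stem cell, so sorters combine several. The SLAM code keeps cells that carry SLAMF1 and lack CD48, while Sca-1, EPCR, Tie2 and ESAM mark cells at the top of the hierarchy, and CD27 and CD34 mark most multipotent and lineage-committed progenitors. Among Sca-1-negative progenitors, the level of the Fc gamma receptors separates CMP from GMP, and Thy1 marks stem cells weakly and T cells strongly. A gate reads protein on the cell surface, whereas the arrays read RNA. Where a gate may have used the product of a gene, the RNA level of that gene in the sorted cells is a description of the sort and no finding.

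Members lie on 5 chromosomes besides that of Ly6a. Slamf1 and Cd48 are neighbours in the SLAM cluster of chromosome 1, which also carries Fcgr3 and Cd34. Procr lies on chromosome 2, Tek on 4, Cd27 on 6, and Esam and Thy1 on 9. The 250 bases before the start site, from RefSeq on build GRCm38.p6, are shown for 4 members, 5′ to 3′ on the strand of the gene: the neighbours Slamf1 and Cd48, whose RNA followed different orders of populations, and Fcgr3 and Procr, which differed most between populations. They lie at chr1:171766882-171767131 on the plus strand (Slamf1), chr1:171681742-171681991 on the plus strand (Cd48), chr1:171059404-171059653 on the minus strand (Fcgr3, the first of its listed starts) and chr2:155750967-155751216 on the plus strand (Procr). Capitals mark matches, on either strand, to the GATA motif GATAA, the RUNX motif TGTGGT, the ETS motif GGAAGT or the TATA box TATAAA.
Slamf1: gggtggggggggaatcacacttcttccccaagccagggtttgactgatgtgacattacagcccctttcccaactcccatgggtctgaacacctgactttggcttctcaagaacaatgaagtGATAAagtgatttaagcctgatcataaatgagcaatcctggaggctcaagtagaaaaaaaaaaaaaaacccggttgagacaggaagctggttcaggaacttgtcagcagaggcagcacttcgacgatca
Cd48: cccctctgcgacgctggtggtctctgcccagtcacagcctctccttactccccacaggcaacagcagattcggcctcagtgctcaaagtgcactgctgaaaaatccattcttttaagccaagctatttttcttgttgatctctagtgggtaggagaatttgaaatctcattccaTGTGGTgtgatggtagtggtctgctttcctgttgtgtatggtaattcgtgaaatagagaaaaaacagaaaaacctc
Fcgr3: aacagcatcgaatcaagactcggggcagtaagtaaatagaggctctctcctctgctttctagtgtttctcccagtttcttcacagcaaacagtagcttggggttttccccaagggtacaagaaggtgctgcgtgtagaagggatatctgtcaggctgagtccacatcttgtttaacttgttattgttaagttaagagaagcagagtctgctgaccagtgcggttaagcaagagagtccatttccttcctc
Procr: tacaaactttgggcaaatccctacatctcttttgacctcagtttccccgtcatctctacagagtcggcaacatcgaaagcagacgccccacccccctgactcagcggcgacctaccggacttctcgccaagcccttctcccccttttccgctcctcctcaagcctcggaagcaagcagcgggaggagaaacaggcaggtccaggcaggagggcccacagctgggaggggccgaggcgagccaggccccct

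The Slamf1 window held 1 match to GATAA, and the Cd48 window 1 match to TGTGGT. Those of Fcgr3 and Procr held none of the 4 motifs. Over 32851 promoter windows of the same length, 22.6% held GATAA, 14.0% TGTGGT, 19.7% GGAAGT and 12.4% TATAAA, so a match in 1 window is common. The start sites of 7 of the 10 members were in the table used, and the other 3 of these windows (Cd34, Tek and Cd27) also held no match.

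Levels are given as log2 of the RMA intensity. A level of 4.62 or less counted as background (the 95th percentile of 129 probe sets of odour, taste and similar genes). Differences between populations are on the same log2 scale, with limma's standard error (SE) and a p-value adjusted over all 45037 probe sets, and are called at an adjusted p below 0.05. Levels of different probe sets are not compared with each other. Each replicate is RNA of many sorted cells, so fewer cells that carry a transcript and less of it per cell cannot be told apart.

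Marker RNAs outside the member list were set beside the labels, and Il7r followed the CLP label. Il7r, the interleukin-7 receptor chain of lymphoid progenitors, lay between 7.16 and 10.94 in CLP of both genotypes and at no more than 5.52 in every other replicate. For 8 samples titled CLP, wild type replicate 1 and all 7 of Mll-AF9, the source label reads CMP, and Il7r lay between 7.70 and 10.91 in these. Erythroid genes, on a list of 5, had a mean level of 10.80 to 10.94 in the wild type CMP replicates and of 6.04 to 8.47 in the other wild type replicates. Flt3, which many gates use to leave multipotent progenitors out of the stem cell fraction, lay between 9.29 and 10.70 in wild type HSC, against 6.15 to 7.54 in wild type GMP and CMP. Whether the CMP and HSC samples held other progenitors than their labels name was not tested. Wild type CLP replicates 6 and 7 stood apart: Fcgr3 lay at 7.71 and 9.003 in them against 4.52 to 5.57 in the other 6, and Kit, the stem cell factor receptor, at 7.52 and 7.03 against 8.19 to 9.13. Wild type GMP replicate 1 read 6.33 in Kit, against 8.14 to 8.38 in the other wild type GMP replicates. In Cd34 it read 7.92, against 8.72 to 9.21. Its difference between 3′ and 5′ probe sets of control transcripts, a sign of RNA quality, was 4.70, the highest of that group (lowest 2.59). Without this replicate, 169 probe sets were called higher and 55 lower in Mll-AF9 than in wild type GMP, beside 61 and 14 with it. No member was among them. The mean of Y-linked probe sets was above 6 in 3 of 5 wild type GMP replicates, 3 of 5 in CMP, 6 of 8 in CLP and 2 of 5 in HSC. It was above 6 in 0 of 20 Mll-AF9 replicates, so sex moves with genotype.

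Between wild type HSC and GMP, 6 of the 11 member probe sets were called, where 30.6% of all probe sets were. Tek, Esam, Procr and Cd34 were higher in HSC, and Fcgr3 and Cd48 were higher in GMP. Between HSC and CMP, 4 of 11 were called (19.4% of all), with Procr, Cd34, Cd27 and Esam higher in HSC. Between HSC and CLP, 0 of 11 were called, beside 0.0111% of all probe sets, 5 in number. At an unadjusted p below 0.05 in that limma fit there was 1 of 11, beside 6.49% of all probe sets. GMP and CMP differed in 7 of 11 (41.1% of all), GMP and CLP in 7 of 11 (33.1%), and CMP and CLP in 5 of 11 (17.5%). These comparisons share their samples and are not independent. CMP values carry more decimals than the others, and CMP may have been processed apart, which cannot be told apart from the population in any comparison with CMP. After quantile normalisation of all groups together the counts against CMP were the same, at 4, 7 and 5. That step only evens out the distributions of whole arrays, so it cannot tell processing from population. Without wild type HSC replicate 1 the count between HSC and CMP was 7, adding Tek, Thy1 and Fcgr3, all higher in HSC.

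Among Mll-AF9 samples the same comparisons called 8 of 11 between HSC and GMP (24% of all probe sets), 5 between HSC and CMP (12.3%), 1 between HSC and CLP (0.127%), 9 between GMP and CMP (31.2%), 7 between GMP and CLP (20.8%) and 6 between CMP and CLP (11.2%). The probe set called between HSC and CLP was that of Thy1, and without Mll-AF9 CLP replicate 6 Tek was called too. The genotypes share no sample. Over the 6 pairs of populations and 11 probe sets, 29 differences were called in wild type and 36 in Mll-AF9. Of these, 27 were called the same way in both and 0 in opposite ways. By pair, both genotypes called 6 member probe sets for HSC against GMP (17.2% of all probe sets), 4 for HSC against CMP (9.85%), 0 for HSC against CLP (0.00888%), 6 for GMP against CMP (25%), 6 for GMP against CLP (15.4%) and 5 for CMP against CLP (8.63%). Among all probe sets called in wild type, between 46.6% (GMP against CLP) and 60.7% (GMP against CMP) were called the same way in Mll-AF9 in the 5 pairs other than HSC against CLP.

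**Figure D1:**
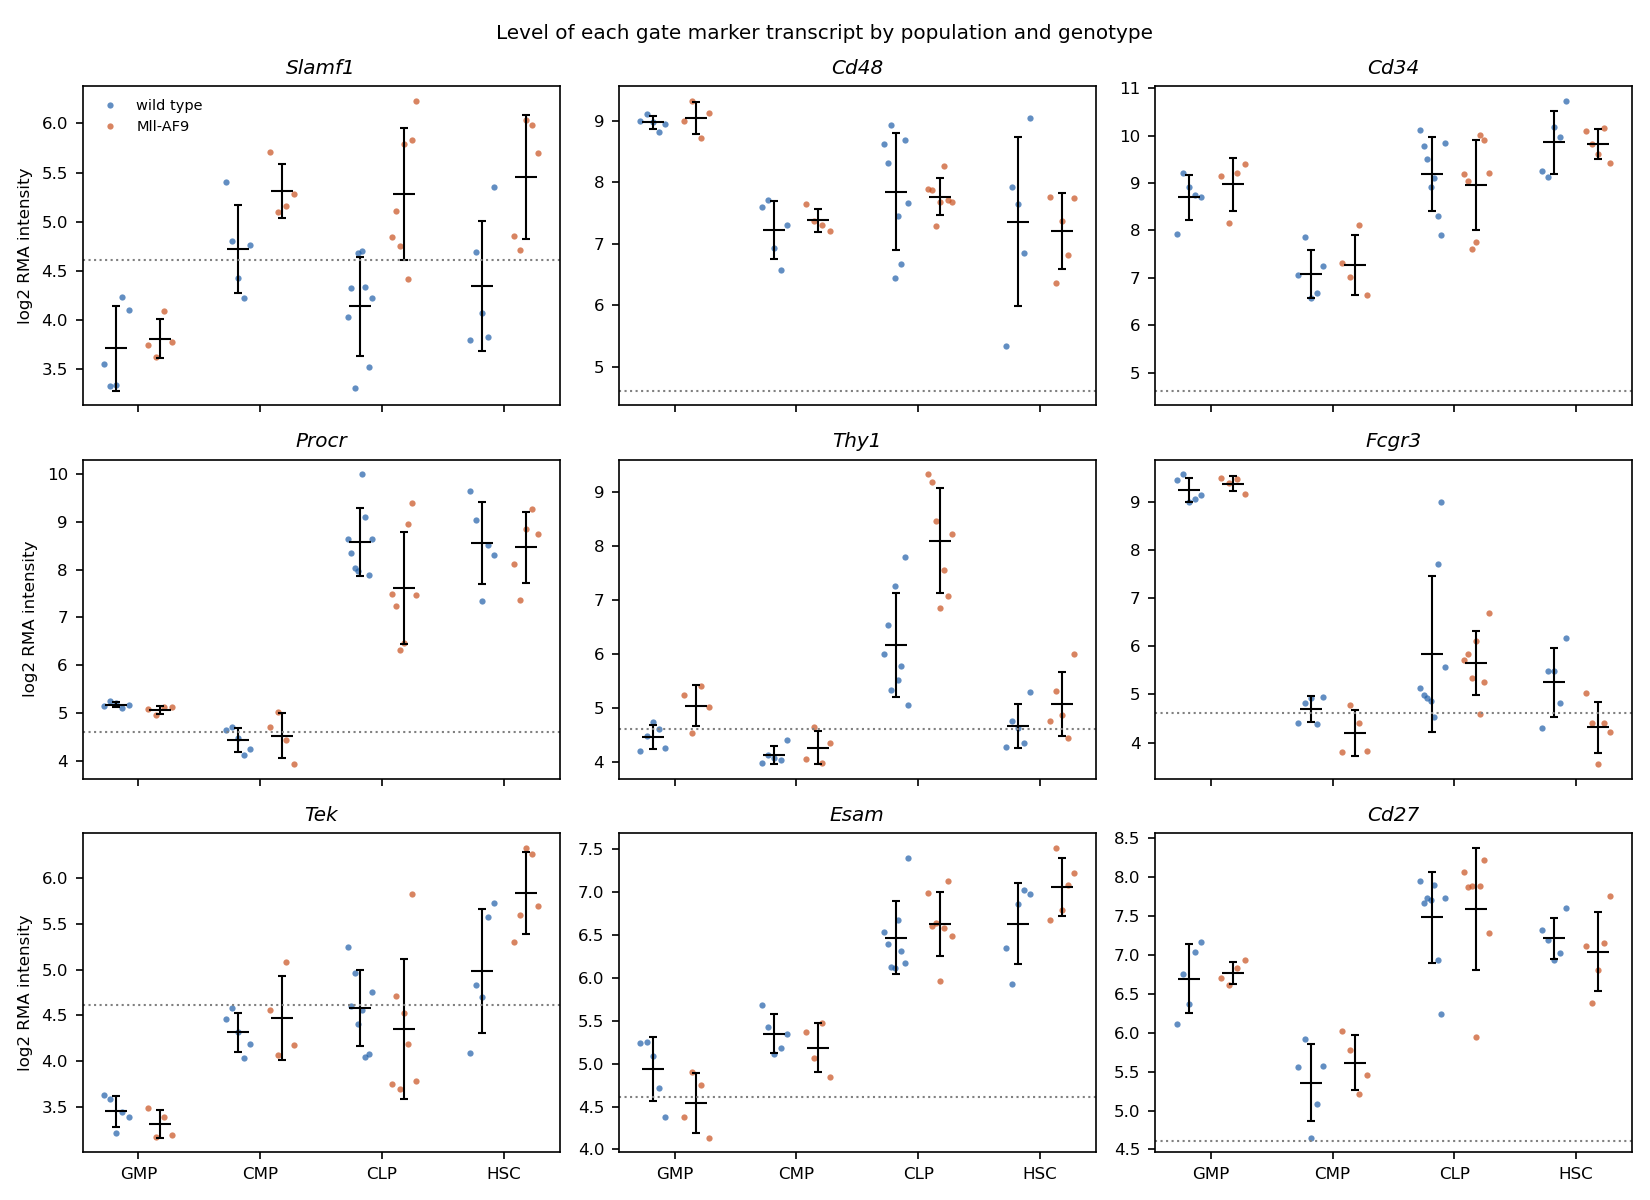
Log2 RMA intensity of each member's main probe set in every replicate (points) of the 4 populations, with the group mean ± SD in black and the background level of 4.62 as a dotted line; wild type (blue) and Mll-AF9 (orange) are drawn side by side on a vertical scale of each gene's own. Fcgr3 and Cd48 sit highest in GMP, Procr in CLP and HSC, and Thy1 in CLP.

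Slamf1, the CD150 receptor that binds itself on neighbouring cells and is the positive marker of the SLAM code, was a dim transcript. Its brightest probe set read 3.80, 4.69, 4.08, 3.83 and 5.35 in wild type HSC and 3.55, 3.33, 3.34, 4.24 and 4.10 in wild type GMP. Wild type CMP read 5.40, 4.80, 4.43, 4.23 and 4.76, and wild type CLP ran from 3.31 to 4.70 with a median of 4.28. Only 2 of the 5 wild type HSC replicates and 3 of the 5 CMP replicates lay above background, and CMP, not HSC, had the highest wild type mean.

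The wild type order for Slamf1 was CMP, HSC, CLP and GMP, and no difference between neighbours in it was called. GMP and CMP were the only wild type pair called, at a difference of -1.01 ± 0.22 (SE, adjusted p = 0.00232). In 0 of 5 GMP replicates was it above background, so the fold is at least 1.08, and the highest GMP replicate, 4.24, lay just above the lowest CMP replicate, 4.23. The Mll-AF9 replicates read 4.85, 4.71, 6.03, 5.98 and 5.70 in HSC, 5.71, 5.10, 5.16 and 5.28 in CMP and 3.75, 3.63, 4.09 and 3.78 in GMP, and ran from 4.42 to 6.23 in CLP with a median of 5.11. There, HSC exceeded GMP by 1.64 ± 0.29 (adjusted p = 0.000977) without overlap, a fold of at least 1.79 over background. The next brightest probe set of Slamf1 was called in the same direction for that pair, at 0.99 ± 0.28 (adjusted p = 0.019), and 2 of 13 alternatives lost the call. The dimmest one had group means below background in all 8 groups.

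Cd48, the partner that binds CD244 and CD2 and whose absence the SLAM code requires, was highest in GMP. It read 8.999, 9.11, 8.98, 8.82 and 8.95 in wild type GMP, 7.59, 7.71, 6.94, 6.57 and 7.31 in CMP, and 5.35, 7.92, 7.65, 6.85 and 9.04 in HSC. GMP thus varied little, and every CMP replicate lay below every GMP replicate. HSC spread over more than any other group (SD 1.37 on the log2 scale, n = 5), from below the CMP range to within the GMP range.

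GMP exceeded CMP in Cd48 by 1.75 ± 0.19 (adjusted p = 5.39e-06), a 3.36-fold difference. HSC lay below GMP, with a difference of -1.61 ± 0.49 (adjusted p = 0.0238), a call that 2 of 14 alternatives lost, those without GMP replicate 2 and without HSC replicate 4. In Mll-AF9, HSC read 7.76, 6.36, 7.37, 6.81 and 7.74 and GMP 8.9997, 9.33, 8.72 and 9.12, without overlap, a difference of -1.83 ± 0.29 (adjusted p = 0.000486). CMP read 7.64, 7.38, 7.30 and 7.20 there. CLP ran from 6.44 to 8.93 with a median of 7.98 in wild type and from 7.29 to 8.26 with a median of 7.72 in Mll-AF9. HSC and CMP lay 0.14 apart in Cd48 in wild type (adjusted p = 0.904) and 0.17 apart in Mll-AF9 (adjusted p = 0.804), and neither difference was called. Over all 43 replicates the correlation of Cd48 with Slamf1 was r = -0.39, a description of points that share populations and arrays.

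Fcgr3, which with Fcgr2b is bound by the antibody that defines GMP, showed the widest gap among members. Wild type GMP read 9.46, 9.58, 9.0005, 9.06 and 9.16, CMP 4.41, 4.82, 4.92, 4.39 and 4.96, and HSC 4.29, 5.49, 5.48, 4.82 and 6.17. CMP and HSC lay near background, and neither overlapped GMP. CLP ran from 4.52 to 9.003 with a median of 5.06, and replicates 6 and 7, the latter level with the lowest GMP replicate, were the highest.

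GMP exceeded CMP in Fcgr3 by 4.55 ± 0.17 (adjusted p = 1.06e-10), 23.5-fold, and exceeded HSC by 16.0-fold (HSC minus GMP -4.00 ± 0.31, adjusted p = 1.08e-06). In Mll-AF9, GMP read 9.50, 9.40, 9.47 and 9.16 against 3.80, 4.78, 4.42 and 3.82 in CMP and 5.03, 4.41, 3.55, 4.40 and 4.22 in HSC. That is at least 26.5-fold over CMP and at least 25.7-fold over HSC, both with the dimmer group at background. Mll-AF9 CLP ran from 4.59 to 6.69 with a median of 5.72 and exceeded CMP by 1.45 on the log2 scale (CMP minus CLP -1.45 ± 0.34, adjusted p = 0.012), a call lost in 2 of 17 alternatives. If the sort used this antigen, as gates for GMP do, the contrast describes the sort.

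Cd34, a sialomucin that carries adhesion ligands, was highest in HSC and lowest in CMP. Wild type HSC read 9.27, 9.13, 10.18, 9.97 and 10.74, GMP 7.92, 9.21, 8.92, 8.74 and 8.72, and CMP 7.05, 7.86, 6.57, 6.68 and 7.25. All CMP replicates lay below all GMP and HSC replicates, and HSC overlapped GMP at 1 value. HSC exceeded CMP by 2.78 ± 0.32 (adjusted p = 6.21e-05) and GMP by 1.16 ± 0.31 (adjusted p = 0.0128), and GMP exceeded CMP by 1.62 ± 0.26 (adjusted p = 0.000158). CD34 protein is part of the usual definition of CMP, and here the populations labelled CMP had the least Cd34 RNA, next to the highest erythroid list level. What part the gate has in this was not tested.

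Mll-AF9 samples gave the same picture for Cd34, with HSC at 10.10, 9.84, 9.62, 10.17 and 9.42, GMP at 9.15, 8.15, 9.21 and 9.40 and CMP at 7.31, 7.01, 8.12 and 6.63. HSC exceeded CMP by 2.56 ± 0.29 (adjusted p = 0.000158), and the smaller excess over GMP (0.85 ± 0.25, adjusted p = 0.0266) was lost in 3 of 13 alternatives. CLP spread widely in both genotypes, from 7.90 to 10.12 with a median of 9.31 in wild type and from 7.62 to 10.01 with a median of 9.20 in Mll-AF9. Wild type CLP replicates 6 and 7 were at the low end, at 8.31 and 7.90.

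Procr, the endothelial protein C receptor, which anchors protein C and marks the stem cell fraction when antibodies to it are used, was high in HSC and CLP alike. Wild type HSC read 9.63, 9.03, 7.33, 8.51 and 8.30, while GMP read 5.16, 5.25, 5.20, 5.11 and 5.18 and CMP 4.65, 4.71, 4.48, 4.13 and 4.25. CLP started at 7.88, with a median of 8.49 and a mean of 8.58 ± 0.71 (SD, n = 8), beside 8.56 ± 0.86 (n = 5) in HSC. HSC and CLP differed by -0.01 ± 0.38 (95% interval -0.82 to 0.80), and no call was made.

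HSC exceeded GMP in Procr by 3.38 ± 0.34 (adjusted p = 8.48e-06), 10.4-fold, and CMP by at least 15.2-fold. GMP in turn exceeded CMP by 0.73 ± 0.13 (adjusted p = 0.0005), without overlap. Mll-AF9 HSC read 8.12, 7.36, 8.84, 9.26 and 8.75, GMP 5.09, 4.95, 5.12 and 5.12 and CMP 4.70, 5.03, 4.45 and 3.93, and the excess of HSC over GMP was 3.40 ± 0.33 (adjusted p = 8.34e-06). Mll-AF9 CLP ran from 6.31 to 9.39 with a median of 7.47. The split of Procr between HSC and CLP on one side and GMP and CMP on the other held in every replicate of both genotypes.

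Esam, an adhesion molecule of cell junctions, followed the same split with smaller steps. Wild type HSC read 6.35, 5.93, 6.86, 7.02 and 6.98, CMP 5.69, 5.43, 5.11, 5.18 and 5.35, and GMP 5.24, 5.25, 5.09, 4.72 and 4.38. CLP ran from 6.11 to 7.40 with a median of 6.35, so HSC and CLP shared a range that no GMP or CMP replicate reached. HSC exceeded GMP by 1.69 ± 0.26 (adjusted p = 0.000311), 3.24-fold, and CMP by 1.28 ± 0.23 (adjusted p = 0.00152). In Mll-AF9 HSC, Esam ran from 6.68 to 7.52, against 4.14 to 4.90 in GMP, and the difference was 2.52 ± 0.25 (adjusted p = 9.77e-06).

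Tek, the Tie2 receptor for angiopoietins, was the other dim member. It read 4.09, 4.83, 4.70, 5.57 and 5.73 in wild type HSC and 3.64, 3.59, 3.22, 3.45 and 3.39 in GMP. CMP read 4.46, 4.58, 4.32, 4.04 and 4.19, all at or under background, and CLP ran from 4.04 to 5.25 with a median of 4.59. HSC exceeded GMP by 1.52 ± 0.27 (adjusted p = 0.000788), a fold of at least 1.29 over background. Mll-AF9 HSC read 5.30, 5.59, 6.33, 6.25 and 5.70, the only group besides wild type HSC with a mean above background. It exceeded Mll-AF9 GMP by at least 2.33-fold and Mll-AF9 CMP by 1.36 ± 0.28 (adjusted p = 0.00659), at least 2.15-fold.

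Endothelial cells also carry Procr, Esam and Tek. On a list of 9 endothelial genes the mean level was 4.67 to 5.14 in wild type HSC, 4.54 to 4.88 in Mll-AF9 HSC and 4.30 to 4.48 in wild type GMP, and 4 of 9 were called higher and 0 lower in wild type HSC than GMP (Tie1, Egfl7, Robo4 and Emcn), beside 30.6% of all probe sets called. The means of Emcn were below background in both, and Tie1 and Robo4 were below it in GMP. Cdh5 and Pecam1, also on that list, lay at 3.04 to 4.00 and 3.20 to 4.34 in HSC of both genotypes, below background. They were below it in GMP of both genotypes as well, at 3.22 to 4.13 and 3.81 to 4.41. Whether endothelial cells have a part in the HSC values was not tested. 

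Thy1, a GPI-anchored glycoprotein, was highest in CLP. Wild type CLP ran from 5.05 to 7.79 with a median of 5.89, against 4.27, 4.76, 4.63, 4.35 and 5.30 in HSC, 4.21, 4.48, 4.74, 4.60 and 4.25 in GMP and 3.98, 4.13, 4.08, 4.03 and 4.40 in CMP. HSC touched the lower end of CLP in 1 replicate, and the other populations lay near background. CLP exceeded GMP by at least 2.86-fold and CMP by at least 2.91-fold (CMP minus CLP -2.04 ± 0.38, adjusted p = 0.00126). The difference of HSC from CLP, -1.49 ± 0.41, was not called (95% interval -2.35 to -0.64, adjusted p = 0.476). In Mll-AF9, HSC read 4.75, 5.31, 4.86, 4.45 and 5.99 and CLP from 6.84 to 9.33 with a median of 8.23, without overlap, and the difference of -3.03 ± 0.43 was called (adjusted p = 0.00542, 8.15-fold).

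Cd27, a TNF receptor family member that binds CD70, was lowest in CMP. Wild type CMP read 5.56, 5.91, 4.65, 5.09 and 5.58, against 7.32, 7.18, 6.92, 7.02 and 7.60 in HSC and 6.11, 6.75, 6.37, 7.04 and 7.16 in GMP, and CLP ran from 6.24 to 7.94 with a median of 7.71. No CMP replicate reached any other wild type replicate. HSC exceeded CMP by 1.85 ± 0.24 (adjusted p = 0.000146), 3.61-fold, GMP exceeded CMP by 1.33 ± 0.25 (adjusted p = 0.000563), and CLP exceeded CMP 4.35-fold. The difference between GMP and CLP (-0.79 ± 0.29, adjusted p = 0.0432) was lost in 10 of 18 alternatives. In Mll-AF9, CMP ran from 5.22 to 6.01 and HSC from 6.37 to 7.75, again apart (1.42 ± 0.29, adjusted p = 0.00603).

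**Figure D2:**
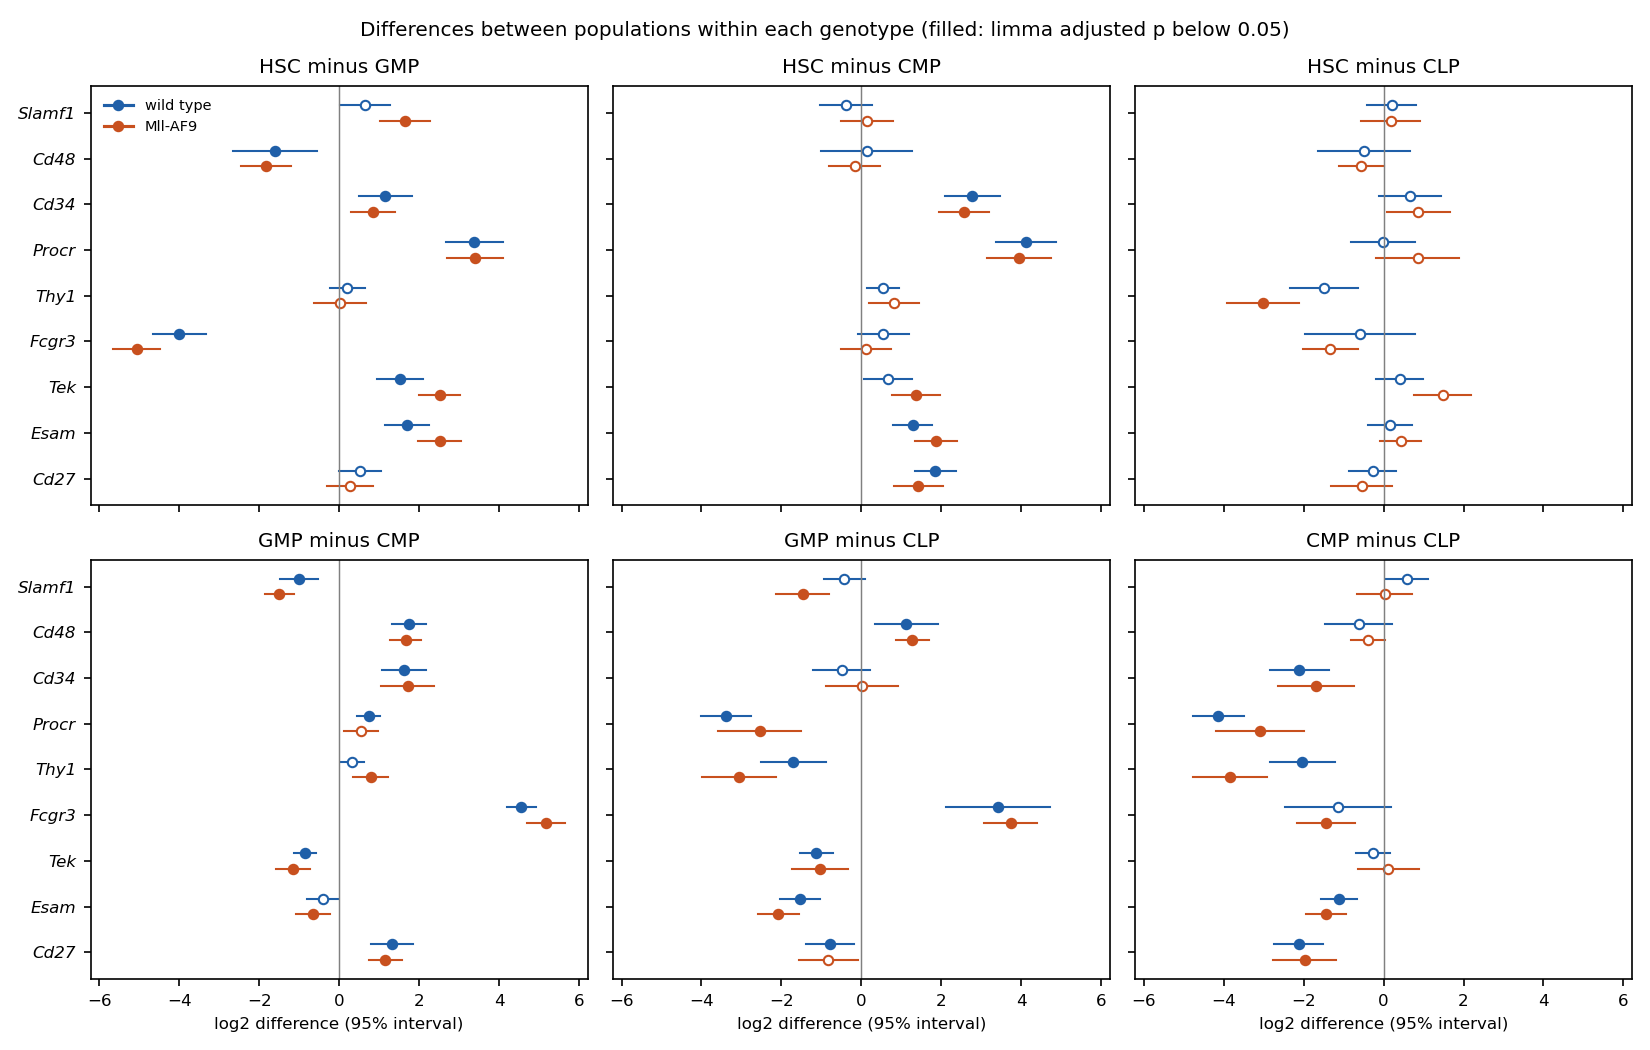
Log2 differences between populations (horizontal axis) for the main probe set of each member, wild type in blue and Mll-AF9 in orange, with 95% intervals; filled points were called by limma. Procr and Fcgr3 carry the widest gaps, at 10.4-fold and 16.0-fold between wild type HSC and GMP.

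In no population did a member probe set pass the threshold between Mll-AF9 and wild type. The count was 0 of 11 in GMP, where 0.167% of all probe sets were called, 0 of 11 in CMP (0.184%), 0 of 11 in CLP (0.215%) and 0 of 11 in HSC (0.00666%), all by limma. At an unadjusted p below 0.05 the counts were 1, 4, 3 and 4 of 11, against 8.34%, 6.06%, 8.28% and 5.87% of all probe sets. Slamf1 enters these counts more than once. All 3 of its probe sets were among the 4 in CMP, and its brightest and next brightest were among the 4 in HSC. With 1 probe set a gene, for 9 genes, the counts were 1, 2, 3 and 3. Over all 11 probe sets, with the Y-linked level as a covariate, the counts were 1, 2, 1 and 2. Leaving out 1 replicate gave 1 to 3 in GMP (3 without Mll-AF9 GMP 2), 1 to 4 in CMP (1 without wild type CMP 3 or Mll-AF9 CMP 1), 2 to 4 in CLP and 1 to 4 in HSC (1 without Mll-AF9 HSC 3). With so few probe sets called at all, a count of 0 among 11 is near the background. In all 44 comparisons of a probe set the values of the genotypes overlapped. How often they overlap over all probe sets was not counted, so this sets the members apart from nothing. The median difference over the members ran from -0.08 in CLP to 0.16 in CMP, beside 0.02 and 0.00 over all probe sets.

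The intervals show how large a shift the data leave room for. The difference of Mll-AF9 HSC from wild type HSC was -0.03 ± 0.29 for Cd34 (95% interval -0.65 to 0.59), -0.15 ± 0.55 for Cd48 (-1.33 to 1.02), -0.09 ± 0.43 for Procr (-1.01 to 0.82), 0.43 ± 0.28 for Esam (-0.17 to 1.03) and -0.17 ± 0.28 for Cd27 (-0.77 to 0.43). The unadjusted HSC intervals of Slamf1 on its brightest probe set, Fcgr3 and Tek exclude equal means and are given below. In GMP, Fcgr3 differed by 0.13 ± 0.17 (-0.22 to 0.49), Cd34 by 0.28 ± 0.27 (-0.30 to 0.86) and Cd48 by 0.07 ± 0.16 (-0.27 to 0.42). The interval of Cd48 in HSC thus reaches past 1 on the log2 scale in both directions, while those of Fcgr3 and Cd48 in GMP stay within 0.49 of no difference.

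Slamf1 had a higher Mll-AF9 mean in all 4 populations on its brightest probe set. The difference was 1.11 ± 0.35 in HSC (95% interval 0.35 to 1.86, adjusted p = 0.743), 1.14 ± 0.28 in CLP (0.55 to 1.73, adjusted p = 0.157), 0.59 ± 0.21 in CMP (0.13 to 1.04, adjusted p = 0.628) and 0.10 ± 0.20 in GMP (-0.32 to 0.52). In HSC, 3 of 5 Mll-AF9 replicates lay above the highest wild type replicate of 5.35. The next brightest probe set gave 0.62 ± 0.28 in HSC, 0.59 ± 0.22 in CMP, 0.16 ± 0.23 in CLP and -0.23 ± 0.20 in GMP, so these 2 probe sets part in CLP and GMP. None of these values passed the adjusted threshold, and most lie near background.

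Smaller unadjusted shifts concerned receptors on both sides of the hierarchy. In HSC, Fcgr3 was at -0.93 ± 0.35 (95% interval -1.67 to -0.19, adjusted p = 0.811) and Tek at 0.85 ± 0.33 (0.14 to 1.56, adjusted p = 0.816). In CMP, Fcgr3 was at -0.49 ± 0.21 (-0.93 to -0.05), in GMP Thy1 at 0.59 ± 0.19 (0.18 to 0.99), and in CLP Procr at -0.96 ± 0.42 (-1.85 to -0.07). The means of Fcgr3 in Mll-AF9 HSC and CMP and of Thy1 in wild type GMP were below background. The folds are thus at least 1.47 for Fcgr3 in HSC, 1.03 for Fcgr3 in CMP and 1.32 for Thy1 in GMP. With the Y-linked level as a covariate, the Tek difference in HSC was 0.52.

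**Figure D3:**
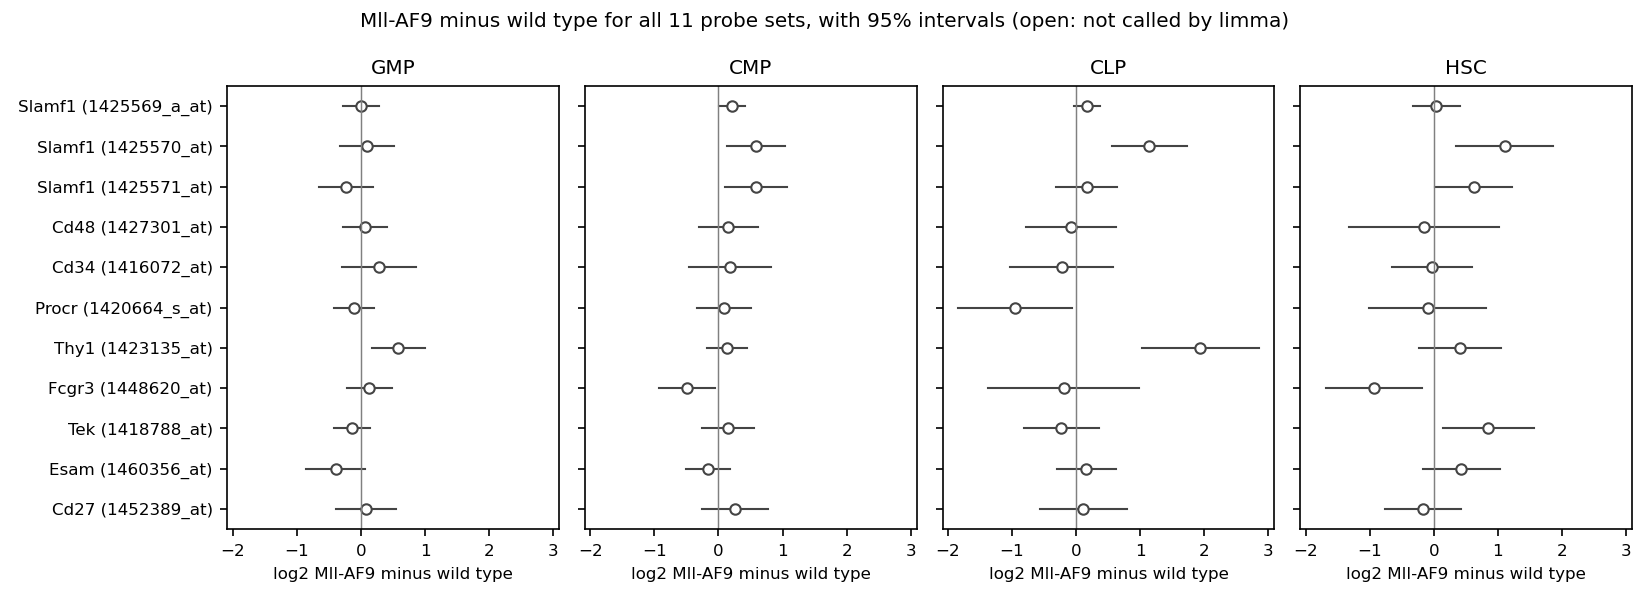
Log2 difference of Mll-AF9 from wild type for each member probe set in the 4 populations, with 95% intervals. None was called; Thy1 in CLP, at 1.94, is the widest.

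Thy1 in CLP had the largest genotype difference of any member. Wild type CLP replicates 1 to 8 read 6.00, 6.53, 5.34, 7.26, 5.51, 5.77, 7.79 and 5.05, and the 7 Mll-AF9 replicates 9.33, 9.18, 8.46, 6.84, 7.56, 7.08 and 8.23. The groups overlapped through wild type replicates 4 and 7. The difference was 1.94 ± 0.44 (95% interval 1.02 to 2.86, adjusted p = 0.104), and it was called without wild type CLP replicate 7 (2.17, adjusted p = 0.0333), though not without replicates 6 and 7 together (2.15, adjusted p = 0.0621). With the Y-linked level as a covariate it was 1.82, and in that fit 0 of all 45037 probe sets were called.

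Genes of other cell types were read in the same samples. On a list of 9 genes of mature T and NK cells, the mean level was 3.81 to 4.43 in wild type CLP and 4.18 to 5.15 in Mll-AF9 CLP, with 3 and 5 of 9 above background, and 1 of 9 was called (Gzma, a granule protease, at 4.30 ± 0.50 in wild type, n = 8, and 7.76 ± 0.89 in Mll-AF9, n = 7, at least 8.27-fold higher), beside 0.215% of all probe sets. Cd3e, a defining T cell gene, was at 4.55 ± 0.34 and 4.84 ± 0.35, and Cd3g was below background in both. On a list of 7 B cell genes, 0 were called higher and 2 lower in Mll-AF9 CLP, beside 0.215% of all probe sets. The median difference over those 7 was -0.67. The 2 called were Vpreb1 and Blnk, genes of early B cells, lower by 3.55 and 2.77 on the log2 scale (differences -3.55 ± 0.52 and -2.77 ± 0.44). On a list of 8 mature myeloid genes, 0 were called between the genotypes in CLP, with a median difference of 0.81 beside 0.02 over all probe sets. The mean level of that list was 3.81 to 7.95 in wild type and 5.23 to 8.32 in Mll-AF9 CLP, and S100a8, a granulocyte protein gene, ran from 4.89 to 12.46 and from 8.46 to 13.07. The part of these in the Thy1 values was not tested. The difference between 3′ and 5′ probe sets of control transcripts, a sign of RNA quality, was 3.36 to 3.91 in wild type and 3.68 to 4.93 in Mll-AF9 CLP, and with it as a covariate the Thy1 difference was 1.96 (adjusted p = 0.476).

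**Figure D4:**
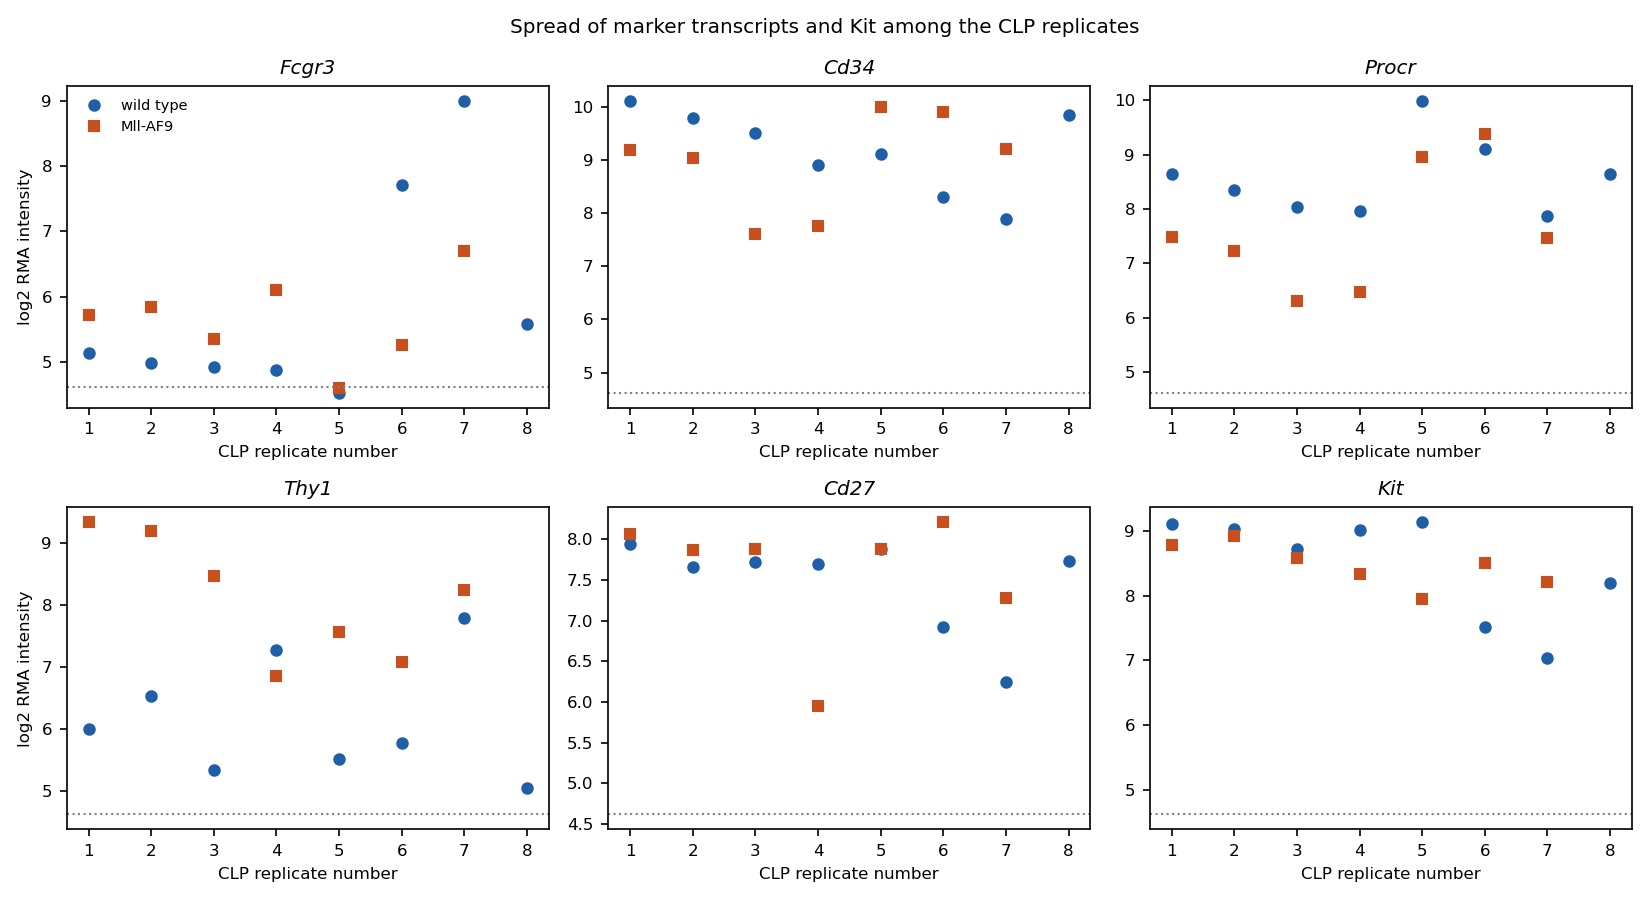
CLP replicates of both genotypes, each a point, for 5 members and Kit as log2 intensity (vertical axis) against replicate number, which carries no order; the dotted line is background. Thy1 runs from 5.05 to 7.79 in wild type and from 6.84 to 9.33 in Mll-AF9, and wild type replicates 6 and 7 have the highest Fcgr3, 7.71 and 9.003.

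Whether the effect of Mll-AF9 differed between populations was tested for each of the 6 pairs of populations and 11 probe sets. Of 66 tests 0 were called. An unadjusted p below 0.05 was reached by 9, all from Thy1, Slamf1, Tek and Esam, in pairs that share groups. No share over all probe sets was taken at that unadjusted level, so the 9 cannot be set against a background. Among all probe sets, 0.0111% were called for HSC against GMP, 0% for HSC against CMP, 0.127% for HSC against CLP, 0% for GMP against CMP, 0.0622% for GMP against CLP and 0.0511% for CMP against CLP. The lowest adjusted p among members was that of Thy1 for HSC against CLP (-1.53 ± 0.51, adjusted p = 0.325).

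Relatives and partners of the members were described from gene lists. Of 8 measured SLAM family genes other than the members, wild type HSC had 1 higher and 2 lower than GMP: Cd244a, the receptor for CD48, by 1.80, Ly9 by -1.17 and Slamf6, below background in both, by -0.79. Of all probe sets, 30.6% were called in that comparison. Against CMP, HSC had 3 higher and 0 lower, again led by Cd244a at 2.64, beside 19.4% of all probe sets. Between genotypes, 1 of 8 was called in CLP, where 0.215% of all probe sets were, the adaptor gene Sh2d1a at 1.38 ± 0.21 (adjusted p = 0.00357), with both group means below background. Of 4 Fc gamma receptor genes, 3 were called higher in GMP than in CMP, led by the shared signalling chain Fcer1g at 2.67 and the inhibitory receptor Fcgr2b at 1.84, and 3 were lower in HSC than in GMP, beside 41.1% and 30.6% of all probe sets called. Of 4 genes of Tie receptors and angiopoietins, 2 were higher in HSC than in GMP: Angpt1, a ligand of Tie2, by 3.83 and Tie1 by 1.73, at least 1.20-fold over a GMP level below background. The median difference of HSC from GMP was 0.00 for the SLAM list, -0.97 for the Fc gamma list and 0.82 for the Tie list, beside -0.09 over all probe sets.

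Lists around the other members were read in the same comparison, wild type HSC against GMP, where 30.6% of all probe sets were called. Of 5 protein C pathway genes 1 was higher in HSC, the thrombin receptor F2r by 2.54, and 2 were lower. Of 6 junctional adhesion genes 1 was higher, F11r by 1.31 (at least 2.28-fold), and of 5 sialomucin genes 1, Emcn, below background in both. Of 6 ligands and partners of CD27 and CD48, 1 was higher and 1 lower, Siva1, which binds the tail of CD27, at -2.47.

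Other markers of stem and progenitor gates, 18 measured, held 9 higher and 2 lower in wild type HSC than GMP, beside 30.6% of all probe sets called, with a median difference of 0.93. The endothelial and stem cell gene Fgd5 was higher by 3.90, from a GMP level below background (at least 5.19-fold), Alcam by 3.25 and Flt3 by 2.73. Prom1 was lower in HSC, where its mean was below background, by at least 19.7-fold. Against CMP, where 19.4% of all probe sets were called, 8 were higher and 3 lower, with the transferrin receptor Tfrc at -2.18. Between genotypes, 0 of these 18 were called in any of the 4 populations. Of 7 genes of the Ly6 family, to which Ly6a belongs, 4 were higher in GMP than CMP, beside 41.1% of all probe sets. In the genotype comparison in GMP, where 0.167% of all probe sets were called, 1 of 7 was called, Ly6k at 1.20 ± 0.16 (adjusted p = 0.00479). Its mean was 3.58 in wild type GMP, below background, and 4.78 in Mll-AF9 GMP, at least 1.12-fold higher.

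Genes with the pattern most like each member were taken by Pearson correlation over the 43 replicates among 11411 genes. The points share populations and arrays, and the values are descriptions. Procr was closest to Zfp467 (r = 0.96), Il18 (0.95) and Fgd5 (0.94), and Esam to Ppp1r13b (0.93), Hlf (0.92) and Vldlr (0.91). Fcgr3 was closest to Igsf6 (0.95), Trim45 (0.95) and Ms4a3 (0.94), Cd34 to Esr1 (0.90), Pcgf5 (0.88) and Vav3 (0.88), and Cd27 to Stat4 (0.91), Tbc1d10c (0.88) and Coro1a (0.88). Thy1 was closest to Trbv1 (0.90), Bcl11b (0.89) and Trgv4 (0.88), genes of T cell receptors and of a T lineage factor. Slamf1, Cd48 and Tek had looser partners. These were Rab40b (0.75), Dusp16 (0.71) and Vwf (0.70) for Slamf1, and Pclaf (0.82), Pgam1 (0.81) and Fuca2 (0.80) for Cd48. Those of Tek were Ago1, Stard4 and Hsd3b7 (each 0.81). Among the members themselves the closest pairs were Esam with Procr (0.81), Cd27 with Cd34 (0.76) and with Procr (0.75), Esam with Tek (0.72), Procr with Cd34 (0.71) and Fcgr3 with Cd48 (0.70).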

How the data were processed

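Total RNA of sorted mouse bone marrow cells was measured on 51 Affymetrix arrays after 2 cycles of labelling, per the labels' protocols. Each deposited intensity, 1 for a probe set on an array, was made with RMA, per the submitters' processing notes, which give no version. The values were linear (2.57 to 23327), and log2 was taken. CMP values carry up to 9 decimals and the others 2, and CMP may thus have been processed separately. Sample titles set the groups. For 8 samples titled CLP, 1 wild type and all 7 Mll-AF9, the source name reads CMP instead, and the title decided the group. Repeat runs of 8 CMP replicates were averaged, which left 43 replicates. Whether replicates are separate mice is not in the labels, and p-values then measure only the spread between samples, in part perhaps technical. No depth exists for arrays, and their number limits the precision.

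Of 45101 probe sets, 64 controls were left out; 34945 had 1 gene, 932 several and 9160 none. Symbols of 34741 were matched by gene identifier to a GRCm38.p6 gene table, used for names. Each comparison of 2 groups was fitted with limma 3.58.1 (lmFit, eBayes with trend) in R 4.3.3 on all 45037 probe sets, with Benjamini-Hochberg adjustment over all of them; differences of the genotype effect were contrasts in a model of 8 groups. The fit was tested on simulated data. A lower bound of a fold raises each dim replicate to background. Named genes were all member probe sets, the 3 most correlated genes per member and up to 4 called genes per list; Cd3e, Cd3g, Cdh5, Pecam1, Il7r and Kit were read as checks, and Vpreb1 and Blnk were the called genes of the B cell list between genotypes. The members and the gene lists were chosen with earlier results of these data known. Alternatives were each replicate left out, no intensity trend, other normalisation and filters, single CMP runs, the Y-linked level or RNA quality as a covariate, and the replicate number as a block.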

Additional observations from a re-analysis of the deposited data

Results flagged for a closer look

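Of 88 tests of a probe set within a group, 3 had a replicate far from the others of its group by Dixon's ratio, which chance alone gives for about 1 in 20. Procr in Mll-AF9 GMP was lowest in replicate 2 at 4.95, where the other 3 lay between 5.09 and 5.12. Esam in wild type CLP was highest in replicate 8 at 7.40, where the other 7 lay between 6.11 and 6.68. Cd27 in Mll-AF9 CLP was lowest in replicate 4 at 5.94, where the other 6 lay between 7.27 and 8.21.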

How the results depend on the processing

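The counts of called members kept within 1.5 times the reported value in all 98 alternatives that leave out no single replicate. Leaving out each replicate in turn, the counts ranged from 0 to 1 for Mll-AF9 against wild type in CLP (1, Thy1, without wild type CLP replicate 7), from 4 to 7 for wild type HSC against CMP (7 without HSC replicate 1) and from 1 to 2 for Mll-AF9 HSC against CLP (2 without CLP replicate 6). In wild type they also ran from 5 to 6 for HSC-GMP, 7 to 9 for GMP-CMP and 5 to 7 for GMP-CLP. In Mll-AF9 they ran from 6 to 8 for HSC-GMP, 8 to 10 for GMP-CMP, 6 to 7 for GMP-CLP and 4 to 6 for CMP-CLP. The counts of the other comparisons did not move. Of the 65 called differences, 55 were called in every alternative run and 10 were lost in some. No called difference turned its direction. With the replicate number as a block, the counts were 6, 5, 0, 7, 8 and 5 for the wild type pairs HSC-GMP, HSC-CMP, HSC-CLP, GMP-CMP, GMP-CLP and CMP-CLP, 8, 5, 1, 9, 6 and 5 for the Mll-AF9 pairs, and 0 for each genotype comparison. The numbers were not taken as pairs, since in no comparison did every same-numbered pair correlate above 0.1; the correlations ran from -0.41 to 0.03 between HSC of the genotypes. In wild type GMP against CMP 4 of 5 pairs were above it (median 0.19), 4 of 5 replicates correlated best with their own number, and in both the Y-linked level was high in replicates 1 to 3 and low in 4 and 5, a hint from the data, not the design. In wild type HSC against GMP 3 of 5 pairs were above it. Probe sets near background, such as those of Slamf1 and Tek, give only lower bounds of folds.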
